A study of Mus musculus with 12 samples.

Results

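Oxidative phosphorylation is carried out by 5 protein complexes of the inner mitochondrial membrane, and most of their subunits are encoded in the nucleus. The genes described here are the nuclear-encoded subunit genes, chosen by symbol pattern (Nduf for complex I, Sdha to Sdhd for complex II, Uqcr for complex III, Cox4 to Cox8 for complex IV and Atp5 for complex V) and by a mean of at least 1 CPM (counts per M counts, M standing for mega, here taken over the column sum) across 12 libraries. Of 20778 rows in the count table, 84 matched the patterns and 73 reached the minimum, with 36 members in complex I, 4 in complex II, 8 in complex III, 10 in complex IV and 15 in complex V. To set the expression profile induced by interferon gamma (IFNγ) beside those of other stimuli, the study sequenced mRNA of splenic CD8 T cells from C57BL/6 mice, which were 6 weeks old by the labels, after 6 hours in culture. All 4 groups held 3 libraries. Cells were left untreated (Naïve) or received 1 µg/ml of an antibody to CD3 (αCD3), a signalling component of the T cell receptor, 70 ng/ml of IFNγ, or 1 µg/ml of bacterial lipopolysaccharide (LPS). For αCD3 and LPS a second label field reads mg/ml where the first reads µg/ml, and the study's methods give another age for its mice, so neither is certain. The cells of every group, controls included, were isolated with MojoSort magnetic beads against CD8 and then kept in culture. No genetic change is named for any group. Whether replicates came from separate mice or cultures is not stated, so p-values measure only the spread between these libraries, which may be technical.

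As background, complexes I and II take electrons from NADH and from succinate, complex III passes them to cytochrome c, and complex IV hands them to oxygen. Protons pumped on the way drive complex V, the ATP synthase. Naïve T cells are known to rest on low rates of respiration, and stimulation through the T cell receptor is known to be followed by mitochondrial growth and by raised glycolysis. The complexes are built from a small catalytic core and many accessory subunits, and 13 further subunits are made inside the mitochondrion from its own genome.

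Libraries held 10.2 to 27.6 M counts, and 12122 genes, among them all 73 members, passed the count filter and were tested. The labelled cell type was checked against its markers. Summed over 7 T cell markers, levels were 1313 to 1435 CPM in Naïve, 1794 to 1997 with αCD3, 1438 to 1480 with IFNγ and 1112 to 1266 with LPS. The 6 B cell markers summed to more, 2767 to 3041 CPM, in Naïve, and to 2015 to 2239 with αCD3, 2428 to 2517 with IFNγ and 1583 to 2101 with LPS. The 3 markers of CD4 T cells summed to 101 to 120 CPM in Naïve and 89.8 to 109 with IFNγ. With αCD3 they were at 76.8 to 92.8 CPM and with LPS at 64.9 to 78.6. The 8 myeloid markers summed to 381 to 756 CPM in Naïve and 307 to 590 with IFNγ. Their sums were 262 to 396 CPM with αCD3 and 240 to 435 with LPS. The 3 NK cell markers ran from 3.17 to 14.7 CPM over all libraries. Each marker of these lists had more than 3 counts in at least 1 library, and the myeloid marker Tyrobp was at 0 in LPS replicate 1. Markers of other spleen cells were thus measured beside those of T cells, and their part in the members' changes was not tested. Fewer cells of a type and less RNA per cell cannot be told apart in such bulk samples.

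The libraries that carry replicate number 1 stood apart for these genes. Within its own group the library numbered 1 was the lowest for 70 members in Naïve, 66 with αCD3, 67 with IFNγ and 66 with LPS. Their summed myeloid markers were also the lowest of each group, at 381 against 742 and 756 CPM in Naïve, and so were their 5 erythroid markers, at 336 against 1867 and 1447 CPM. The part of these cells in the members' levels was not tested. Same-numbered libraries deviated together from their group means across all genes, so the counts over all members in each pair of groups are given beside those from a fit with the replicate number as a block and from the libraries numbered 2 and 3 alone. None of the members' calls below was lost in either of these fits. Calls and p-values of single members come from the main fit, without the block, unless the block is named.

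Of the 73 members, 42 rose with αCD3 and 0 fell (edgeR quasi-likelihood test, adjusted p under 0.05), a share of 57.5%, while 22.9% of all tested genes were called higher and 15.7% lower. With LPS 28 members rose and 2 fell, against 26.9% of all tested genes called higher and 22.3% called lower. With IFNγ 0 members were called in either direction, where 8.17% of all tested genes were called higher and 4.27% lower. The median log2 fold change of the 73 members was 0.36 with αCD3, 0.24 with LPS and 0.06 with IFNγ, and that of all tested genes was -0.02, -0.01 and -0.02. The IFNγ median was -0.01 without Naïve replicate 1 and 0.13 without IFNγ replicate 1. These 3 comparisons share the Naïve libraries. In the test for any difference among the 4 groups 40 members were called, a share below the 59.9% of all tested genes.

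**Figure D1:**
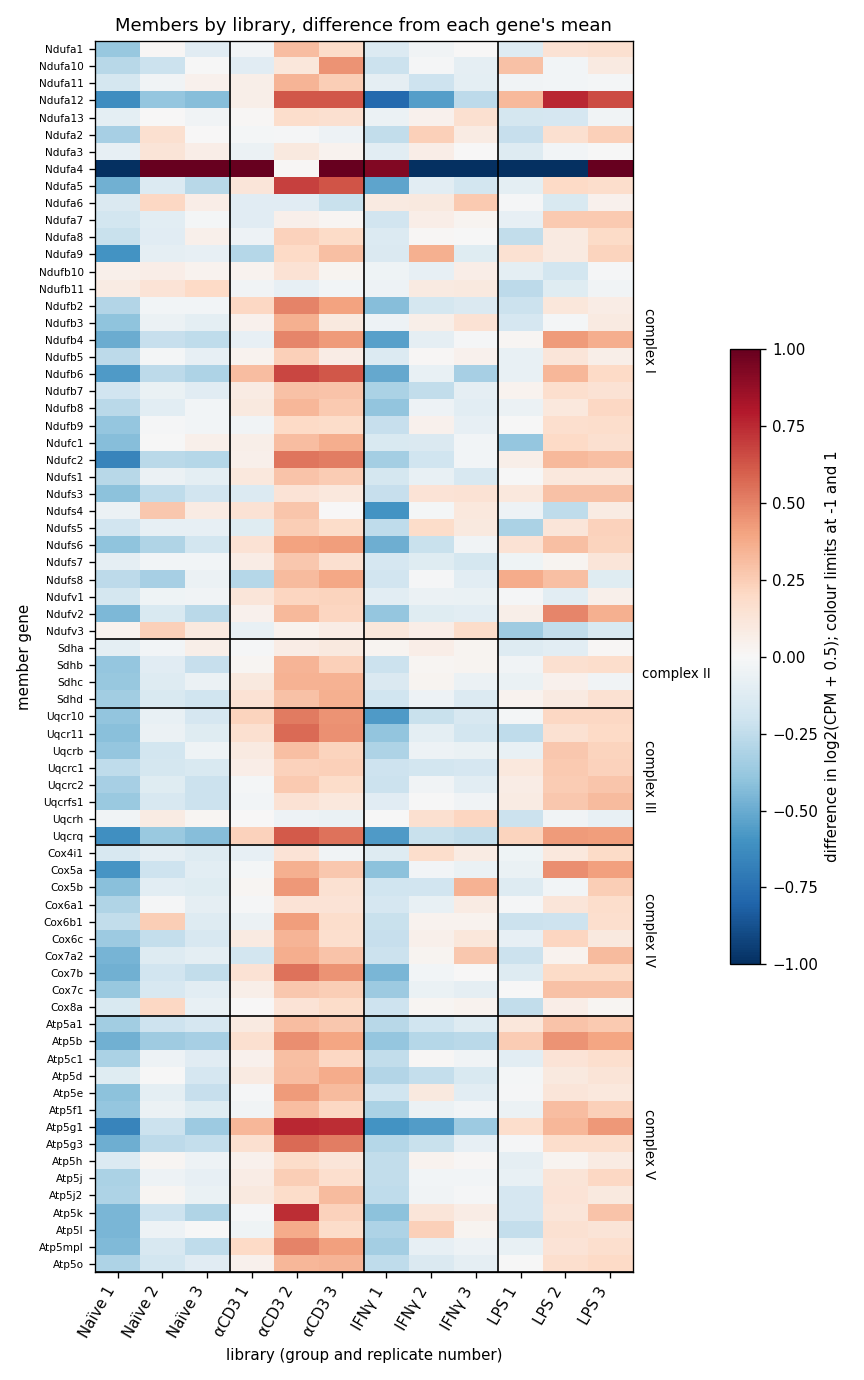
Difference of 72 of the 73 members from each gene's own mean over 12 libraries, in log2(CPM + 0.5), with libraries in columns by group and replicate number and genes in rows by complex. Most rows are blue in the Naïve and IFNγ libraries and red in αCD3 and LPS libraries 2 and 3, and the library numbered 1 is the bluest of its group, while Ndufa4 runs over the colour limits.

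Summed over all members, levels were 5163, 5949 and 5848 CPM in Naïve, 6742, 8079 and 7783 with αCD3, 5411, 6126 and 6189 with IFNγ and 6508, 7466 and 7517 with LPS. Every αCD3 and LPS library lay above every Naïve and IFNγ library, while the Naïve and IFNγ ranges overlapped. Without the TMM scaling members took 0.612% ± 0.0451 (SD, n = 3) of all counts in Naïve, 0.754% ± 0.0537 with αCD3, 0.580% ± 0.0280 with IFNγ and 0.670% ± 0.0401 with LPS. On that scale LPS replicate 1, at 0.624%, lay below Naïve replicates 2 and 3, at 0.643% and 0.632%, so LPS and Naïve overlapped. By complex the summed CPM rose from the Naïve to the αCD3 library of the same number in all 3 pairs of all 5 complexes. Complex V held the most counts, 2053 to 2356 CPM in Naïve and 2888 to 3528 with αCD3, of which the single gene Atp5b took 667 to 738 and 1039 to 1280 CPM.

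**Figure D2:**
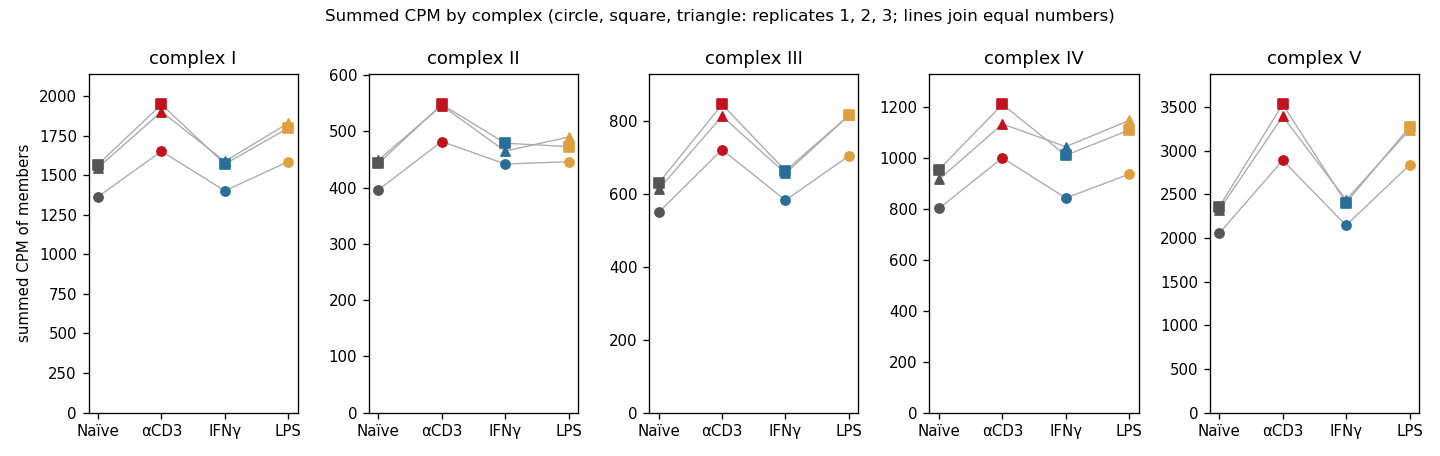
Summed CPM of the members of each complex in each library (vertical axis from 0), with groups along the horizontal axis, symbols for replicate numbers and lines joining libraries of the same number. In complex V the αCD3 libraries reach 2888 to 3528 CPM and the LPS libraries 2835 to 3269, above the 2053 to 2436 of the Naïve and IFNγ libraries, and replicate 1 is the lowest of its group in each complex.

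Promoters of members, called or not, were read for known motifs in the 250 bases before the transcription start that RefSeq gives. Of the 73 members, 60 were found by symbol in the RefSeq promoter table of build GRCm38.p6. Each motif was searched on both strands, and its share is set beside that over the 27025 genes of the table. The table holds more genes than the 12122 tested here, and no share over the tested genes was taken. The NRF1 motif, spelled GCGCANGCG, lay in 13 members (21.7%) and in 5.9% of all promoters. CCGGAAG, the motif of ETS factors such as GABPA, lay in 12 of the 60 and in 7.8%. For AAGATGGC (YY1) the shares were 1.7% and 1.8%, for AAGGTCA (ERR receptors) 8.3% and 4.7%, for CACGTG (E-box) 8.3% and 6.9%, for GGGCGG (GC box) 33.3% and 35.4% and for CCAAT 43.3% and 37.5%. None of the motif spellings contains another. Members' promoters had a median GC content of 56.4%, against 52.4% over the table, which was not adjusted for. Among 34 members called higher with αCD3 the NRF1 motif lay in 7 and the ETS motif in 7, and among the 26 not called it lay in 6 and 5. These matches describe letters and not binding.

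The last 150 bases before the RefSeq start are shown for 3 members with large changes in level and for 2 subunits of complex II, of which Sdhd was called higher and Sdha was not. Capitals mark CCAAT boxes and the E-box in Atp5g1 (chr11:96075632-96075781, minus strand), GC boxes in Ndufa12 (chr10:94198885-94199034, plus strand), CCAAT and GC boxes in Atp5b (chr10:128083157-128083306, plus strand), the NRF1 and ETS motifs in Sdhd (chr9:50603850-50603999, minus strand), and NRF1 motifs in Sdha (chr13:74350241-74350390, minus strand).
Atp5g1: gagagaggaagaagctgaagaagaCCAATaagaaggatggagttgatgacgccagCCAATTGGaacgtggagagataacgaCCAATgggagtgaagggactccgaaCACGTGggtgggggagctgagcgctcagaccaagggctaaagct
Ndufa12: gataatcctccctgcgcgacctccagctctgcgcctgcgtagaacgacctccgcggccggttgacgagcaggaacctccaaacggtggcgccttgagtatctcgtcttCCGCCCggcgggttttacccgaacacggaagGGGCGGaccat
Atp5b: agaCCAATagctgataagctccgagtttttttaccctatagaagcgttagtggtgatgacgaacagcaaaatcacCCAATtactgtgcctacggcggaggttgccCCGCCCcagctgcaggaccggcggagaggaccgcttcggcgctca
Sdhd: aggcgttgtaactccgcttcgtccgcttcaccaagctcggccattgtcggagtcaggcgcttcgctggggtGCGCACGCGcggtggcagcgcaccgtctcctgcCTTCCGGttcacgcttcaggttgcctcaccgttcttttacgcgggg
Sdha: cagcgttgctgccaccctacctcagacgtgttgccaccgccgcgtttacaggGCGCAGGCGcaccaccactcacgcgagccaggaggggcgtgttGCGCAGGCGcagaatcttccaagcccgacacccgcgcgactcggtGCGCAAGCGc
GENCODE places some starts further upstream, so that by its gene positions the window of Ndufa12 lies wholly inside the gene and those of Atp5b, Atp5g1 and Sdha lie partly inside. The window of Sdha, which was not called in any comparison with Naïve, held 3 NRF1 matches, at 98, 55 and 10 bases before the RefSeq start. That of Ndufa12, one of the members with the largest change, held none.

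Complex I has 7 core subunits among the members, which bind NADH, carry iron-sulphur clusters or reach to ubiquinone, and 29 accessory ones. Of the core 5 rose with αCD3 and 3 with LPS, and of the accessory subunits 11 rose with αCD3 while 6 rose and 2 fell with LPS. Of all tested genes 22.9% were called higher with αCD3, and 26.9% higher and 22.3% lower with LPS, and the 6 are 20.7% of the accessory subunits. With the replicate block 18 accessory subunits rose with αCD3 and 13 with LPS, against 28.1% and 31.0% of all tested genes in that fit. The accessory subunit Ndufa12 of the peripheral arm had the largest called change with LPS among all members. It read 55.8, 65.8 and 63.9 CPM in Naïve, 89.8, 133 and 133 with αCD3, 50.0, 58.6 and 71.7 with IFNγ and 108, 146 and 136 with LPS. Its αCD3 and LPS libraries lay above all Naïve and IFNγ libraries. The log2 fold change was 0.93 ± 0.18 (SE) with αCD3 (adjusted p = 0.00215), 1.08 ± 0.18 with LPS (adjusted p = 6.51e-04) and -0.04 ± 0.18 with IFNγ (adjusted p = 0.917). Of its sequence words of 31 bases 79.3% are found in its own transcripts alone, so reads of the rest could be shared with another gene.

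Among the core subunits, Ndufv2, which carries an iron-sulphur cluster next to the NADH site, read 79.4, 98.0 and 89.9 CPM in Naïve, 112, 136 and 126 with αCD3, 83.2, 100 and 101 with IFNγ and 113, 153 and 139 with LPS. It was higher by 0.48 ± 0.13 on the log2 scale with αCD3 (adjusted p = 0.0124, and 0.0542 without αCD3 replicate 2) and by 0.60 ± 0.13 with LPS (adjusted p = 0.00282). Ndufv1, the NADH-oxidising subunit, rose by 0.27 ± 0.06 with αCD3 (adjusted p = 0.00679) and read 0.06 ± 0.06 with LPS (adjusted p = 0.443). Ndufs1, the largest of the iron-sulphur subunits, rose by 0.36 ± 0.07 with αCD3 (adjusted p = 0.00347). Its call with LPS (log2 fold change 0.22 ± 0.07, adjusted p = 0.0337) was lost without Naïve replicate 1 or 3, IFNγ replicate 1, or LPS replicate 2 or 3, at adjusted p = 0.0546 to 0.128. Ndufs8 was not called in any comparison with Naïve.

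Ndufs3 and Ndufs7, further core subunits of the arm that reaches to ubiquinone, were less firm in the main fit. With the replicate block both were called higher with αCD3 (adjusted p = 8.55e-04 and 0.00612). Ndufs3 rose by 0.53 ± 0.12 with LPS (adjusted p = 0.00384). Its call with αCD3 (0.33 ± 0.12, adjusted p = 0.0468) was lost in 9 of the fits that left out 1 library, and that of Ndufs7 with αCD3 (0.22 ± 0.07, adjusted p = 0.0236) in 5, at adjusted p up to 0.152 and 0.101. The log2 fold change of Ndufs3 with IFNγ was 0.31 ± 0.12 (adjusted p = 0.119), the highest positive value with IFNγ among all members.

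Both members that fell with LPS were accessory subunits of complex I. Ndufv3 read 37.1, 42.7 and 38.7 CPM in Naïve, 34.3, 37.1 and 38.2 with αCD3, 39.1, 38.0 and 41.1 with IFNγ and 28.2, 30.4 and 32.5 with LPS. Each LPS library lay below all libraries of the other groups. It fell by 0.38 on the log2 scale (log2 fold change -0.38 ± 0.08, adjusted p = 0.00288). Ndufb11, a subunit of the membrane arm, read 92.1, 95.5 and 100 CPM in Naïve and 72.5 to 85.0 CPM with LPS, with no overlap, and its log2 fold change was -0.28 ± 0.07 (adjusted p = 0.00750). Ndufb6, also of the membrane arm, went the other way. It read 18.7, 23.1 and 22.4 CPM in Naïve, 34.7, 44.6 and 43.1 with αCD3 and 26.5, 35.3 and 32.0 with LPS, and rose by 0.93 ± 0.15 (adjusted p = 7.08e-04) and 0.55 ± 0.15 (adjusted p = 0.0107). Only 65.6% of the words of Ndufb6 and 71.0% of those of Ndufb11 occur in no other gene.

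Complex II is succinate dehydrogenase, an enzyme of the tricarboxylic acid cycle as well as of the respiratory chain, and its 4 subunits did not move alike. Sdhd, a membrane anchor, read 58.5, 67.3 and 65.2 CPM in Naïve, 82.6, 91.8 and 95.7 with αCD3, 65.2, 72.0 and 68.1 with IFNγ and 76.7, 79.7 and 83.2 with LPS. All αCD3 and LPS libraries lay above all Naïve and IFNγ libraries. It rose by 0.50 ± 0.08 on the log2 scale with αCD3 (adjusted p = 5.51e-04) and by 0.33 ± 0.08 with LPS (adjusted p = 0.00495), a call lost on library size alone and with the length and GC offset. Sdhb, the iron-sulphur subunit, rose by 0.45 ± 0.11 with αCD3 (adjusted p = 0.00776). Its call with LPS (0.35 ± 0.11, adjusted p = 0.0205) was lost without Naïve replicate 1 or 3 or LPS replicate 2 or 3, at adjusted p = 0.0507 to 0.0794. Sdhc, the other anchor, rose by 0.46 ± 0.10 with αCD3 (adjusted p = 0.00375) and read 0.17 ± 0.10 with LPS (adjusted p = 0.179). With the replicate block Sdhc was called higher with LPS too (adjusted p = 0.0301). Sdha, the flavin subunit that oxidises succinate, read 196, 206 and 219 CPM in Naïve, 208, 221 and 225 with αCD3, 214, 220 and 214 with IFNγ and 192, 195 and 212 with LPS. Its Naïve libraries overlapped those of each treated group, and its log2 fold changes were 0.08 ± 0.06, 0.06 ± 0.06 and -0.05 ± 0.06 with αCD3, IFNγ and LPS (adjusted p = 0.369, 0.595 and 0.508).

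In complex III, the cytochrome bc1 complex, 7 of 8 members rose with αCD3 and 6 with LPS, against 22.9% and 26.9% of all tested genes. The small subunit Uqcrq, which sits beside cytochrome b, read 60.3, 71.7 and 68.9 CPM in Naïve, 109, 142 and 135 with αCD3, 62.3, 79.3 and 78.2 with IFNγ and 108, 125 and 124 with LPS. Naïve and IFNγ overlapped, and both lay apart from αCD3 and LPS. It rose by 0.94 ± 0.12 with αCD3 (adjusted p = 2.24e-04) and by 0.83 ± 0.12 with LPS (adjusted p = 3.32e-04), and all of its words are its own. Smaller rises were found in the core proteins Uqcrc1 (0.37 ± 0.07 and 0.40 ± 0.07) and Uqcrc2 (0.37 ± 0.09 and 0.42 ± 0.09) and in the Rieske iron-sulphur protein Uqcrfs1 (0.32 ± 0.08 and 0.47 ± 0.08), with adjusted p of 6.23e-04 to 0.00997. Uqcrh, the hinge protein at cytochrome c1, was not called with αCD3 or LPS, at log2 fold changes of -0.06 ± 0.07 and -0.12 ± 0.07, and was named after its values were seen.

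In complex IV, cytochrome c oxidase, 4 of 10 members rose with αCD3 and 4 with LPS, against 22.9% and 26.9% of all tested genes, and with the replicate block 7 rose in each, against 28.1% and 31.0%. No test compared complexes with each other. Cox7b, a small subunit, read 75.1, 91.6 and 88.1 CPM in Naïve, 116, 153 and 143 with αCD3, 76.1, 103 and 105 with IFNγ and 96.0, 120 and 120 with LPS. With αCD3 it rose by 0.69 ± 0.15 (adjusted p = 0.00418). Its call with LPS (0.40 ± 0.15, adjusted p = 0.0438) was lost in 7 of the fits that left out 1 library, at adjusted p up to 0.145. The calls of Cox5a with αCD3 (0.50 ± 0.17, adjusted p = 0.0436) and LPS (0.58 ± 0.18, adjusted p = 0.0189) were lost in 7 and 3 of those fits, and those of Cox7c (0.40 ± 0.11 and 0.41 ± 0.11, adjusted p = 0.0182 and 0.0126) in 3 and 2. Cox4i1, the largest nuclear-encoded subunit of the complex, read 178, 187 and 182 CPM in Naïve, 188, 219 and 194 with αCD3, 182, 225 and 211 with IFNγ and 193, 214 and 227 with LPS. Its 3 treated groups overlapped each other, its αCD3 and LPS libraries lay just above those of Naïve, and it was not called, with log2 fold changes of 0.13 ± 0.09, 0.17 ± 0.09 and 0.21 ± 0.09. Cox5b and Cox6a1 were not called either, although all αCD3 libraries of Cox5b, at 42.0 to 56.3 CPM, lay above those of Naïve, at 30.9 to 38.6. With the replicate block Cox5b was called higher with αCD3 (adjusted p = 0.0157), Cox6a1 with αCD3 and LPS (adjusted p = 0.00364 and 0.00250) and Cox4i1 with LPS (adjusted p = 0.0102).

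In complex V 12 of 15 members rose with αCD3 and 7 with LPS, against 22.9% and 26.9% of all tested genes. With the replicate block the LPS count was 14, against 31.0% of all tested genes. All 5 subunits of the F1 head rose with αCD3. Atp5b, the catalytic β subunit (chr10:128083273-128090391, GRCm38), read 667, 727 and 738 CPM in Naïve, 1039, 1280 and 1223 with αCD3, 710, 761 and 770 with IFNγ and 1107, 1267 and 1221 with LPS. Its αCD3 and LPS values overlapped each other and lay far above those of the other groups. It rose by 0.73 ± 0.08 with αCD3 (1.66-fold, adjusted p = 9.63e-05) and by 0.75 ± 0.08 with LPS (1.69-fold, adjusted p = 4.62e-05), the smallest p-values among the members in both comparisons. Atp5a1, the α subunit, rose by 0.47 ± 0.08 (adjusted p = 0.00122) and 0.46 ± 0.08 (adjusted p = 9.02e-04). Atp5c1, the γ subunit of the central stalk, was called with αCD3 (0.34 ± 0.11, adjusted p = 0.0267), a call lost without Naïve replicate 1 or 3 or αCD3 replicate 2 or 3, at adjusted p = 0.0550 to 0.104.

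The c subunits, which form the rotor ring in the membrane, are encoded by 3 genes. Atp5g1 (chr11:96068852-96075670) read 53.1, 72.5 and 65.2 CPM in Naïve, 106, 142 and 141 with αCD3, 55.6, 57.0 and 65.3 with IFNγ and 95.1, 106 and 114 with LPS. It had the largest rise with αCD3 of all members, 1.03 ± 0.14 (2.04-fold, adjusted p = 2.64e-04), and rose by 0.72 ± 0.14 with LPS (adjusted p = 0.00163). Atp5g3 read 95.5, 112 and 114 CPM in Naïve, 150, 199 and 192 with αCD3, 110, 115 and 127 with IFNγ and 133, 152 and 152 with LPS, and rose by 0.75 ± 0.12 (adjusted p = 5.58e-04) and 0.44 ± 0.12 (adjusted p = 0.00898). The remaining c subunit gene Atp5g2 is listed at 0 in every library and was no member. Since the annotation behind the counts is not given, this 0 cannot be read as absence of its transcript. Atp5o, the stalk subunit that holds the head, rose by 0.45 ± 0.09 with αCD3 (adjusted p = 0.00376) and by 0.33 ± 0.09 with LPS (adjusted p = 0.0143, lost without Naïve replicate 1 or LPS replicate 3, at 0.0557 and 0.0555). Since only 6.0% of its words occur in no other gene, its counts rest on how reads were divided.

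**Figure D3:**
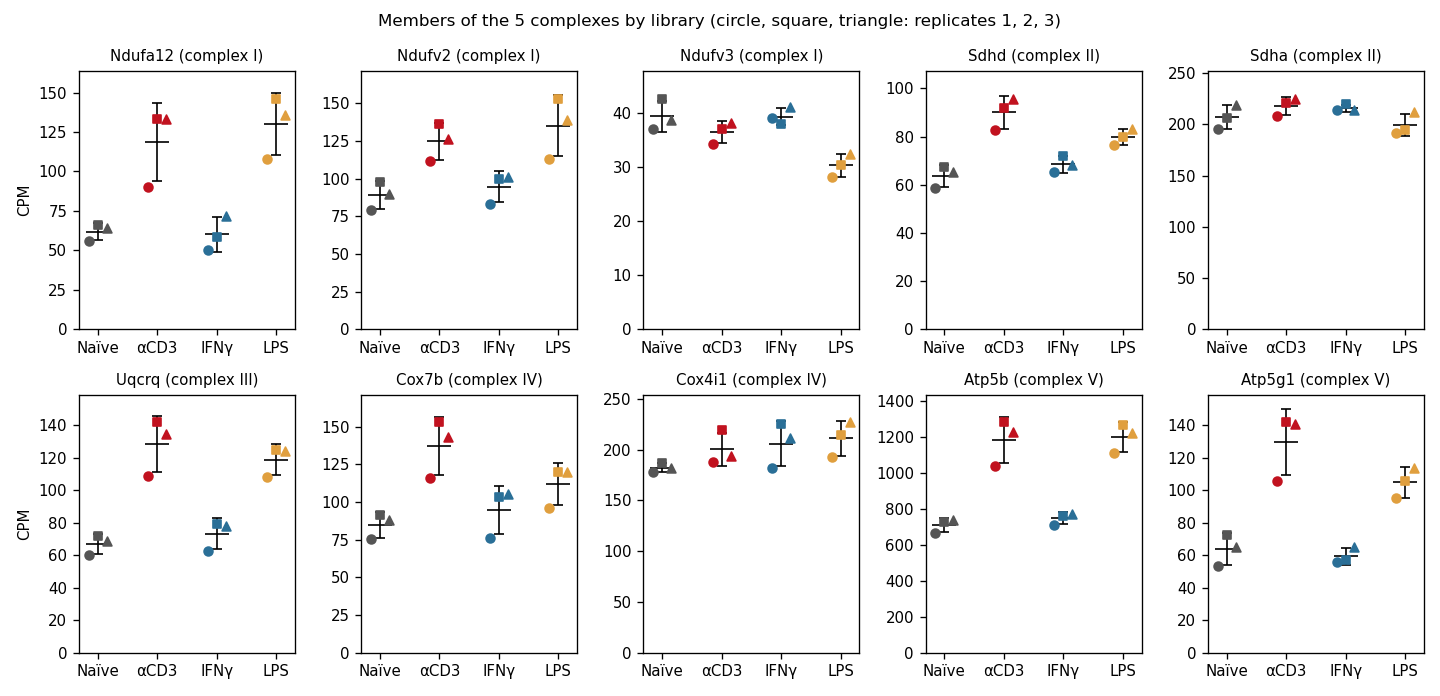
CPM of 10 members in each library (vertical axes from 0), with symbols for replicates 1, 2 and 3 and with group mean ± SD (n = 3) as a bar and whiskers. Ndufa12, Uqcrq, Atp5b and Atp5g1 lie apart in αCD3 and LPS from Naïve and IFNγ, Ndufv3 is lowest in LPS at 28.2 to 32.5 CPM, and the Naïve libraries of Sdha overlap each treated group.

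For each of the 42 members that rose with αCD3 the log2 fold change was at least 0.22, and the 73 members ran from -0.20 to 1.03. In 50 members all 3 αCD3 libraries lay above all 3 Naïve libraries, a pattern that 28.6% of tested genes showed. With the replicate block 55 members were called higher (28.1% of all tested genes) and 1 lower, Ndufb11. The libraries numbered 2 and 3 alone gave 55 higher (26.7% of all tested genes) and 2 lower. Left-out libraries moved the number of calls between 28, without αCD3 replicate 2, and 49, without αCD3 replicate 1. Here and below, no share over all tested genes is given for fits that left out 1 library.

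With LPS the 73 members ran from -1.46, in Ndufa4, to 1.08, and all 3 LPS libraries lay above Naïve in 33 members, against 30.6% of tested genes. The replicate block gave 47 members higher (31.0% of all tested genes) and the same number lower as before, 2. The libraries numbered 2 and 3 alone gave 42 higher (29.2% of all tested genes) and 2 lower. The count depended on single libraries. Calls numbered 17 without Naïve replicate 1, 18 without LPS replicate 2 and 19 without LPS replicate 3. On library size alone, without TMM, 12 members were called higher and 9 lower, against 17.7% and 36.1% of all tested genes, where the median of all tested genes itself moved to -0.22 and the members' median to 0.03, which is 0.25 above it as in the main scaling. With an offset for gene length and GC content 28 rose and 6 fell, against 27.2% and 21.8% of all tested genes, and the median was 0.14. Without Naïve replicate 1 the median was 0.16. Among the named members, library size alone ended the LPS calls of Ndufb6, Ndufs1, Sdhb, Sdhd, Cox5a, Cox7b, Cox7c, Atp5g3 and Atp5o, and the αCD3 calls of Ndufs3, Ndufs7, Ndufv1, Cox5a and Atp5c1.

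Against Naïve no member passed the test with IFNγ. Log2 fold changes outside Ndufa4 ran between -0.27 and 0.31. At an unadjusted p under 0.05, 2 members were higher and 0 lower, against 13.8% and 11.7% of all tested genes. DESeq2 and limma-voom called 0 members too. In 2 members all 3 IFNγ libraries lay above all 3 Naïve libraries, against 16.1% of tested genes. With the replicate block 7 members were called higher, namely Ndufb3, Ndufc2, Ndufs3, Sdhb, Uqcrfs1, Cox6c and Cox7a2, a share of members below the 13.5% of all tested genes. On library size alone 5 members were called lower, against 12.9% of all tested genes, whose median moved to -0.16, and the members' median lay 0.08 above it as in the main scaling. The libraries numbered 2 and 3 alone gave 4 higher (11.8% of all tested genes).

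**Figure D4:**
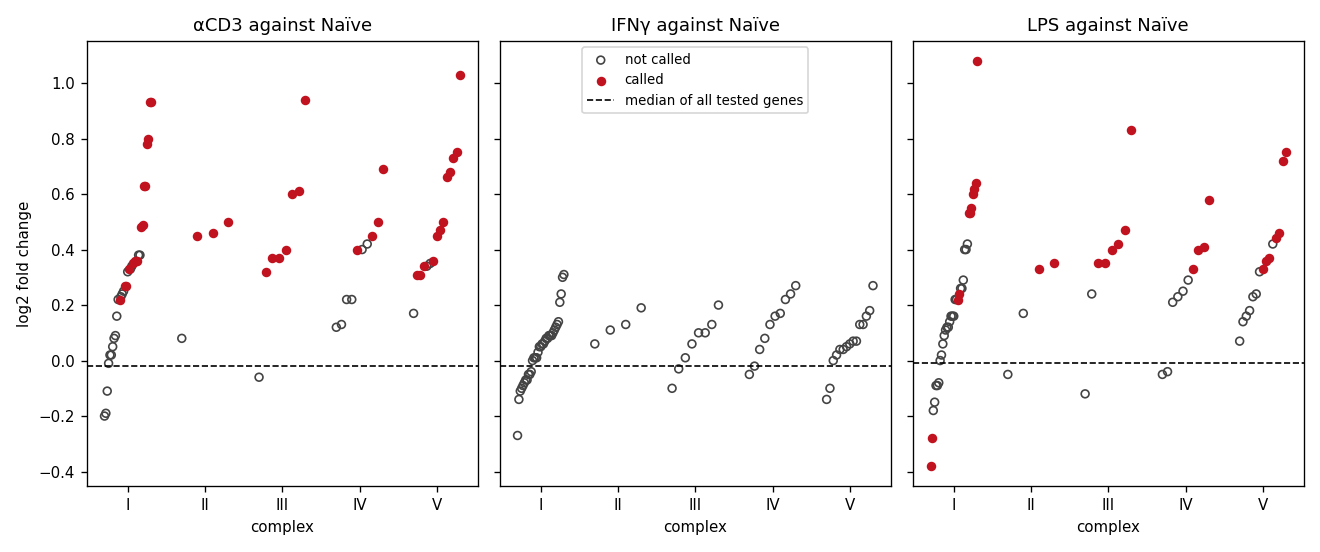
Log2 fold change against Naïve of each member (points, ordered by value within its complex) with αCD3, IFNγ and LPS, filled where called, with a dashed line at the median of all tested genes. Filled points reach 1.03 with αCD3 and 1.08 with LPS, no point is filled with IFNγ, and Ndufa4 is left out because its values, down to -1.97, rest on few counts.

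Set directly against αCD3, IFNγ libraries were lower in 30 members and higher in 1, Ndufa6, an accessory subunit of complex I, while 21.4% of all tested genes were called lower and 15.8% higher. Of the called members Atp5g1 differed most, by -1.13 ± 0.14 (adjusted p = 1.38e-04), followed by Ndufa12 at -0.98 ± 0.18 (adjusted p = 0.00157). The block gave 50 lower (25.9% of all tested genes) and the libraries numbered 2 and 3 alone gave 47 (25.0% of all tested genes). Against LPS, IFNγ was lower in 20 members and higher in 2, Ndufv3 and the hinge protein Uqcrh, with 22.4% of all tested genes lower and 18.0% higher. Here Ndufa12 differed by -1.12 ± 0.18 (adjusted p = 5.80e-04) and Atp5g1 by -0.82 ± 0.14 (adjusted p = 8.51e-04). The block gave 38 lower (26.9% of all tested genes) and the libraries numbered 2 and 3 alone gave 35 (25.5% of all tested genes), while library size alone gave 15 lower and 5 higher, against 19.2% and 21.3% of all tested genes. Leaving out IFNγ replicate 1, LPS replicate 2 or LPS replicate 3 left 13, 12 or 11 calls in all.

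Between αCD3 and LPS, 3 members were higher with αCD3, namely Ndufa13, Ndufv1 and Ndufv3, all of complex I, and 0 were lower, against 9.64% and 9.76% of all tested genes. Ndufa13, and Ndufa6 above, were named after their values were seen. At an unadjusted p under 0.05 the numbers were 14 and 0, against 15.8% and 17.2% of all tested genes. DESeq2 and limma-voom gave 3 and 1 higher with 0 lower, and no share over all genes is given for them. These 3 calls were not firm, since any of 10 single libraries left out moved their number, to between 0 and 10. With the block 20 members were higher with αCD3 (16.5% of all tested genes) and 2 lower, Ndufs3 and Uqcrfs1. The libraries numbered 2 and 3 alone gave 19 higher (14.3% of all tested genes) and 1 lower. The median difference over the 73 members was 0.11, at 0.15 in complex V, 0.15 in complex II and 0.06 in complex III, and the median over all members was 0.06 without αCD3 replicate 2 and 0.19 without αCD3 replicate 1. Atp5b did not pass the test, at -0.02 ± 0.08 (adjusted p = 0.892).

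The members varied in level as well as in response. Per kilobase of annotated exon length, the mean over the 12 libraries was highest for Cox6a1, at 227 CPM per kb, and Atp5b, at 226, followed by Atp5o, at 208. On coding transcript length the order was Atp5b at 501, Cox4i1 at 302 and Cox6a1 at 279. The group with the highest mean CPM was αCD3 for 51 members, LPS for 16, Naïve for 4 and IFNγ for 2. Members called higher with αCD3 were more abundant, at a median of 79.3 CPM, than those not called, at 49.0 CPM. These levels are means over all 12 libraries, raised ones included, and calls are easier to reach at higher counts. Level and call are thus not independent. The median exon length of the members was 1587 bases, against 4476 over all tested genes, and their GC content 50.2% against 49.6%. Closest to the minimum were Ndufa4 at 2.64 CPM, Ndufs4 at 5.37 and Ndufc1 at 9.46 inside it, and Atp5s at 0.947, Cox6a2 at 0.837 and Cox6b2 at 0.681 outside. Ndufa4, whose product is today assigned to complex IV, was at 0 in 2 IFNγ and 2 LPS libraries and reached 8.91 CPM in Naïve replicate 2. Its group means were 4.07 CPM in Naïve, 3.85 with αCD3, 0.972 with IFNγ and 1.39 with LPS, and it was called in no comparison. The remaining 8 rows below the minimum were Cox7a1, Cox4i2, Ndufa4l2, Ndufa11b (a processed pseudogene), Cox8b, Cox7b2, Cox8c and Atp5g2. Several of the Cox rows are known as isoforms of muscle, testis or lung.

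None of the 13 subunits encoded in the mitochondrion was called higher with any stimulus. They summed to 63188 to 68278 CPM in Naïve, 59923 to 66900 with αCD3, 60529 to 67942 with IFNγ and 62293 to 64980 with LPS, and the 4 ranges overlapped. Without the TMM scaling they took 6.83 to 7.41% of all counts in Naïve, 5.89 to 6.87% with αCD3, 5.85 to 6.60% with IFNγ and 5.74 to 6.23% with LPS, so that the IFNγ and LPS libraries lay below those of Naïve. With αCD3 and with LPS 0 of 13 were called higher and 1 lower, ATP8, at -0.52 (adjusted p = 0.0286) and -0.60 (adjusted p = 0.0120). ATP8 overlaps ATP6 on the mitochondrial genome, so reads may be divided between them. The median log2 fold change of the 13 was -0.05 in each of the 3 comparisons with Naïve.

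Genes around the complexes were taken as whole lists, to be read against the shares of all tested genes called higher and lower, 22.9% and 15.7% with αCD3, 26.9% and 22.3% with LPS and 8.17% and 4.27% with IFNγ. Of 44 tested assembly factors, which build the complexes, 22 rose and 3 fell with αCD3, 22 rose and 5 fell with LPS, and 3 rose and 1 fell with IFNγ. Ndufaf4, an assembly factor of complex I, went from a mean of 30.9 CPM in Naïve to 68.1 with αCD3 and 71.3 with LPS, at log2 fold changes of 1.14 (adjusted p = 7.69e-05) and 1.21 (adjusted p = 3.07e-05). Of 77 mitochondrial ribosomal proteins, which translate the 13 internal subunits, 60 rose with αCD3, 59 with LPS and 1 with IFNγ, and 0 fell. The tricarboxylic acid cycle list had 9 of 14 higher with αCD3 and 5 with LPS, and 1 lower with IFNγ. Of 12 genes of mitochondrial DNA maintenance and transcription 7 rose and 2 fell with αCD3, 7 rose with LPS, and 1 rose with IFNγ, Tfam, the packaging factor of mitochondrial DNA, at 0.38 (adjusted p = 0.0116). Tfam was also higher with αCD3 and LPS, at 0.43 and 0.44.

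Electron carriers and neighbouring enzymes were mixed, with 7 of 12 higher and 1 lower with αCD3, 6 higher and 3 lower with LPS and 1 higher with IFNγ. Cycs, cytochrome c, had a mean of 45.0 CPM in Naïve, 85.4 with αCD3, 62.4 with IFNγ and 102 with LPS, and rose by 0.92 (adjusted p = 0.00562) and 1.19 (adjusted p = 9.71e-04) with αCD3 and LPS. Cox7a2l fell with αCD3, by 0.71 on the log2 scale (log2 fold change -0.71, adjusted p = 9.81e-04), and with LPS, by 0.34 (log2 fold change -0.34, adjusted p = 0.0338). Its product is known for joining complexes III and IV into supercomplexes, and whether it does so in this mouse strain was not tested. Of 11 transcription factors and coactivators of respiratory genes 4 rose and 1 fell with αCD3 and also with LPS, and 1 rose with IFNγ, or 36.4% higher and 9.09% lower with αCD3 and with LPS and 9.09% higher with IFNγ. Pprc1, a coactivator of the PGC-1 family, went from a mean of 89.6 CPM to 194 with αCD3 and 192 with LPS, and Myc from 151 to 508 and 597 CPM. Nrf1, whose motif is described above, was not called in any comparison with Naïve, at means of 57.1 to 72.6 CPM. Gabpa, the ETS factor gene named above, was called higher against Naïve only with LPS, at 0.31 (adjusted p = 0.00257). Gabpb1 was higher with αCD3, IFNγ and LPS, at 0.40, 0.33 and 0.74 (adjusted p = 5.92e-04, 0.00684 and 8.19e-06). Whether any of these factors acts at the motifs was not tested.

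**Figure D5:**
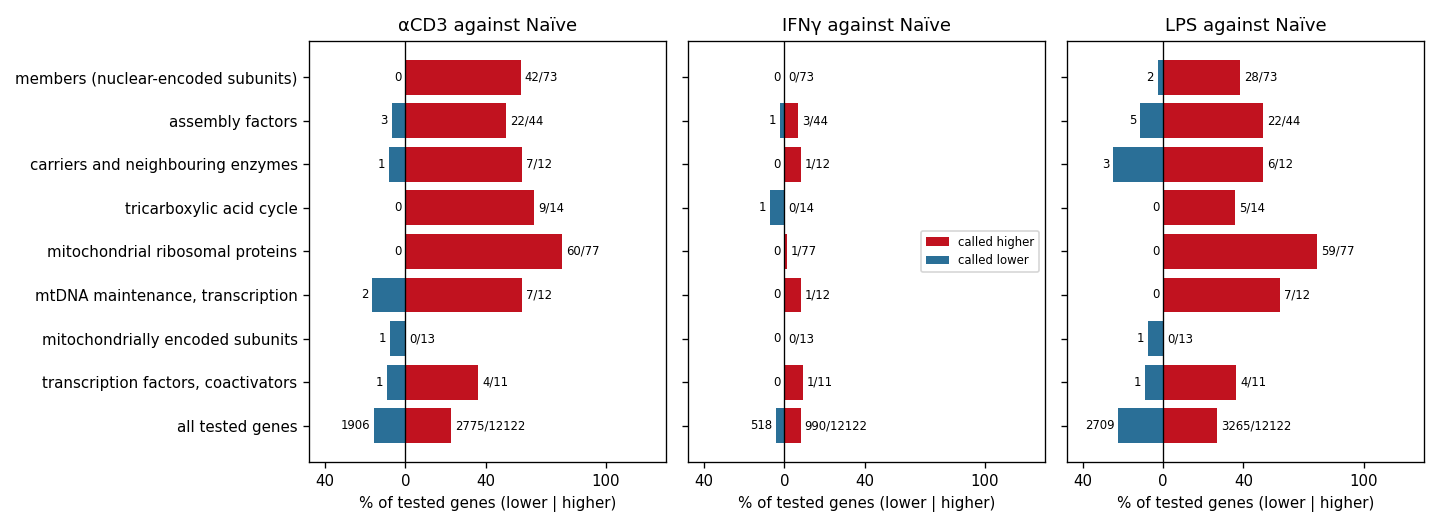
Share of tested genes called higher (red, to the right) and lower (blue, to the left) against Naïve with αCD3, IFNγ and LPS, for the members, 7 other mitochondrial gene lists and all 12122 tested genes, with counts beside the bars. Mitochondrial ribosomal proteins have 60 and 59 of 77 called higher with αCD3 and LPS, the mitochondrially encoded subunits have 0 of 13, and the IFNγ panel holds at most 3 higher calls for any of the mitochondrial lists.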

How the data were processed

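mRNA of mouse CD8 T cells was sequenced in 12 libraries, 3 in each of 4 groups taken from the GEO labels. The authors deposited 1 table of estimated counts per gene symbol. Per the labels, RNA was taken with NucleoSpin columns and libraries were made by the INCPM mRNA Seq protocol. The submitters' processing notes name kallisto, mm10 and DESeq2 1.24.0, and the version and annotation behind kallisto are not given in the sources used here. Estimated counts were rounded to whole numbers. Totals of 10.2 to 27.6 M counts per library limit the precision of low genes such as Ndufa4.

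Counts were filtered with filterByExpr, scaled by TMM and fitted over all 12 libraries with edgeR 4.0.16 in R 4.3.3 (quasi-likelihood test, group as the only term). The Benjamini-Hochberg adjustment ran over every tested gene, and genes under 0.05 were called higher or lower. CPM values use TMM library sizes, except for the minimum of 1 CPM. Alternatives were library size alone, DESeq2 size factors, no filter, DESeq2 1.42.0, limma 3.58.1 (voom), the compared groups alone, a minimum of 5 CPM, an offset for gene length and GC content, the replicate number as a block, both together, and each library left out in turn. A fit of the libraries numbered 2 and 3 alone was chosen after seeing the data. Code was tested on simulated data. Gene positions, lengths and shared words of 31 bases came from GENCODE M21 (GRCm38), and promoters from RefSeq (GRCm38.p6).

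Replicate numbers come from the labels, which do not say what a number shares. Deviations from group means of same-numbered libraries correlated at 0.117 to 0.401 in all 18 pairs. The main fit leaves the number out all the same, so its calls and p-values ignore this pairing. The fit with the replicate block takes it in, and some calls of single members differ there.

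Members, lists and motifs were chosen with earlier results of these data known. Named genes were members of at least 5 CPM with the 3 largest called changes in each direction against Naïve, the 2 smallest p-values per complex in the test among the groups, and the 3 highest levels per length, and, at any level, catalytic and core subunits and isoform pairs. Others were named after their values were seen. The values of 1 member are not reported here by name, and it is counted in all totals.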

Additional observations from a re-analysis of the deposited data

How the results depend on the processing

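On library size alone the median log2 fold change of all tested genes moved to -0.13, -0.16 and -0.22 with αCD3, IFNγ and LPS, the members' median was -0.08 with IFNγ and 0.03 with LPS, and calls numbered 5 for IFNγ against Naïve and 20 for αCD3 against LPS. The replicate block lost no called member and gave 7 calls for IFNγ and 49 for LPS against Naïve, 52 for IFNγ against αCD3, 43 for IFNγ against LPS and 22 for αCD3 against LPS. The length and GC offset gave 1 call for IFNγ and 16 for αCD3 against LPS, and turned Cox7c with IFNγ to -0.18. The replicate block with that offset gave 9, 49, 38 and 33 calls for IFNγ against Naïve, αCD3 and LPS and for αCD3 against LPS, with Cox7c at -0.18. The libraries numbered 2 and 3 alone gave 4, 49, 37 and 20 in the same order. For αCD3 against LPS, no count filter and the compared groups alone gave 0 calls, and limma-voom gave 1. Leaving out each library in turn gave 28 to 49 calls for αCD3 against Naïve, 0 to 1 for IFNγ, 17 to 36 for LPS, 22 to 40 for IFNγ against αCD3, 11 to 28 for IFNγ against LPS and 0 to 10 for αCD3 against LPS. The cause of these changes was not tested. Of the values for single named members under all alternatives, 3573 kept their direction and side of the threshold, 185 lost a call, 153 gained one, 48 moved and 2 reversed.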
